A study of Macaca mulatta with 7 samples.

Results

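CD74, CIITA, MAMU-DPA and MAMU-DRA, 4 genes of MHC class II antigen presentation, were followed in nuclei of the rhesus monkey spinal cord. They were looked up by gene symbol and are 4 of 28966 genes in the count tables. The symbols of CD74, CIITA and MAMU-DRA stand in the tables themselves, whereas MAMU-DPA is listed there by its Ensembl identifier alone and took its name from a reference table of gene names.

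MHC class II molecules are pairs of an alpha and a beta chain that carry peptides from endocytosed protein to the cell surface, where CD4+ T cells read them. MAMU-DRA and MAMU-DPA are alpha chain genes of the rhesus DR and DP molecules. CD74 is the invariant chain, which holds the peptide groove closed until the pair reaches the endosome, and CIITA is the transactivator that sits on the promoters of class II genes and sets their transcription. In the healthy central nervous system class II is known mainly from microglia and from macrophages at the borders of the tissue.

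Single-nucleus RNA-seq libraries, which count RNA molecules of single nuclei by unique molecular identifiers (UMIs), were made from 7 pieces of cord, and each of the 7 groups is 1 library. Intact cervical, thoracic and lumbar cord came from an untreated adult female aged 5 years. Lumbar cord was taken 7, 14 or 30 days after injury (dpi) or 6 months after it (mpi) from adult females aged 7, 7, 6 and 6 years, far below a complete transection of the thoracic cord in which a block of tissue had been cut out. By the study's account 1 animal was used for each time point and the meninges were removed, so time after injury, animal, age and library cannot be told apart. Since each group is a single library, groups could not be tested against each other and no p-value is given. Each interval is an exact Poisson or binomial 95% interval, and covers counting error only.

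Library totals over all 69332 barcodes ranged from 45079131 to 150987900 UMIs. After quality filters 63730 nuclei remained, with a median of 3180 to 7309 UMIs per nucleus in a library. Any pair of libraries shared 12 to 36 barcodes, at most 0.379% of the smaller one. Nuclei were clustered and 1652, 2532, 2088, 3464, 4627, 3876 and 2309 of them were called microglia/macrophage-like in intact cervical, thoracic and lumbar cord and at 7, 14 and 30 dpi and 6 mpi, the order in which all values per library are given. They made up 18.0, 23.0, 19.3, 38.0, 50.2, 44.4 and 41.0% of the nuclei. All 7 markers of that class had UMIs in each library, and their summed level was 6434, 6409, 7014, 5952, 6074, 4751 and 3639 CPM (UMIs of a gene per 1000000 UMIs of all genes in these nuclei). They are called microglia-like from here on.

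In the Mmul_10 assembly, the build used for the files, CD74 lies on chromosome 6 at chr6:147911733-147922838 on the minus strand and CIITA on chromosome 20 at chr20:10827489-10889183 on the plus strand. MAMU-DPA at chr4:136430783-136440626 (plus strand) and MAMU-DRA at chr4:137076488-137081619 (minus strand) lie in the MHC region of chromosome 4. These positions come from the RefSeq annotation and were matched by gene name, whereas the counts carry Ensembl identifiers. In the RefSeq annotation no gene overlapped any of the 4.

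In microglia-like nuclei CD74, MAMU-DRA and CIITA were higher at 7, 14 and 30 dpi than in all 3 intact segments, and at 6 mpi they were inside the intact range over the whole class. Here and below, how many of all genes left the intact range was not counted, so lying outside it describes the named genes alone. The 4 genes summed to 490, 435, 622, 2259, 1953, 1334 and 470 CPM. Against intact lumbar cord the sum was 3.63-fold at 7 dpi, 3.14-fold at 14 dpi, 2.14-fold at 30 dpi and 0.755-fold at 6 mpi, which is a log2 ratio of 1.86 (1.82 to 1.90), 1.65 (1.61 to 1.69), 1.10 (1.06 to 1.14) and -0.41 (-0.47 to -0.34). The uninjured segments themselves differed, with log2 ratios to intact lumbar of -0.35 in cervical and -0.52 in thoracic cord, so the 6 mpi value lay within the spread of the intact segments and the others did not. All 4 comparisons share the intact lumbar library.

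CD74, the invariant chain, had the highest level of the members: 302, 245, 401, 1634, 1337, 936 and 276 CPM. The injured libraries up to 30 dpi lay above the whole intact range, and 6 mpi lay inside it. The ratio to intact lumbar was 4.08-fold (log2 2.03, interval 1.97 to 2.08) at 7 dpi, 3.33-fold at 14 dpi, 2.33-fold at 30 dpi and 0.689-fold at 6 mpi.

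MAMU-DRA, the alpha chain of DR, also stood highest at 7 dpi, then 14 and 30 dpi and intact lumbar cord, at a lower level than CD74, with 111, 114, 157, 482, 388, 291 and 126 CPM. The chemistry counts tags primed at the 3′ end of transcripts, and whether priming inside unspliced nuclear RNA makes the levels of the 2 genes depend on their length was not tested. The ratio was 3.07-fold at 7 dpi, 2.48-fold at 14 dpi, 1.86-fold at 30 dpi and 0.806-fold at 6 mpi. As for CD74, the values from 7 to 30 dpi lay above those of the intact segments, and the value at 6 mpi lay among them. The share of all genes that did so was not counted.

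CIITA, the transactivator, was measured at 68.8, 68.1, 52.1, 131, 161, 85.6 and 53.9 CPM. Its highest library was 14 dpi rather than 7 dpi, with ratios of 2.52-fold at 7 dpi, 3.08-fold at 14 dpi, 1.64-fold at 30 dpi and 1.03-fold at 6 mpi. At 30 dpi it lay above the intact range but below a 2-fold difference. At 6 mpi it lay inside that range over the whole class, but above the intact segments in nuclei without a UMI of GPNMB, given below.

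MAMU-DPA, the alpha chain of DP, was the least abundant member and had another time course. It was counted at 8.0, 8.23, 12.2, 11.4, 67.2, 21.0 and 13.1 CPM, from 59, 93, 90, 178, 1376, 532 and 82 UMIs. At 7 dpi, where CD74 had its highest level, MAMU-DPA was inside the intact range with a log2 ratio of -0.10 (-0.47 to 0.29). At 14 dpi it was 5.50-fold of intact lumbar (log2 2.46, 2.15 to 2.78), or a log2 ratio of 1.83 in nuclei without a UMI of early-response genes such as FOS and JUN, and at 30 dpi and 6 mpi it was 1.72-fold and 1.07-fold. Mamu-DPA1, by its name another DP alpha chain gene, was named from the same table. The likeness of the pair was not tested, so how the counting divided reads between them is uncertain. In OPC-like nuclei of injured cord Mamu-DPA1 ran from 1.93 to 28.7 CPM and was lowest at 7 and 30 dpi. Whether a like difference between libraries bears on the 7 dpi value of MAMU-DPA was not tested.

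**Figure D1:**
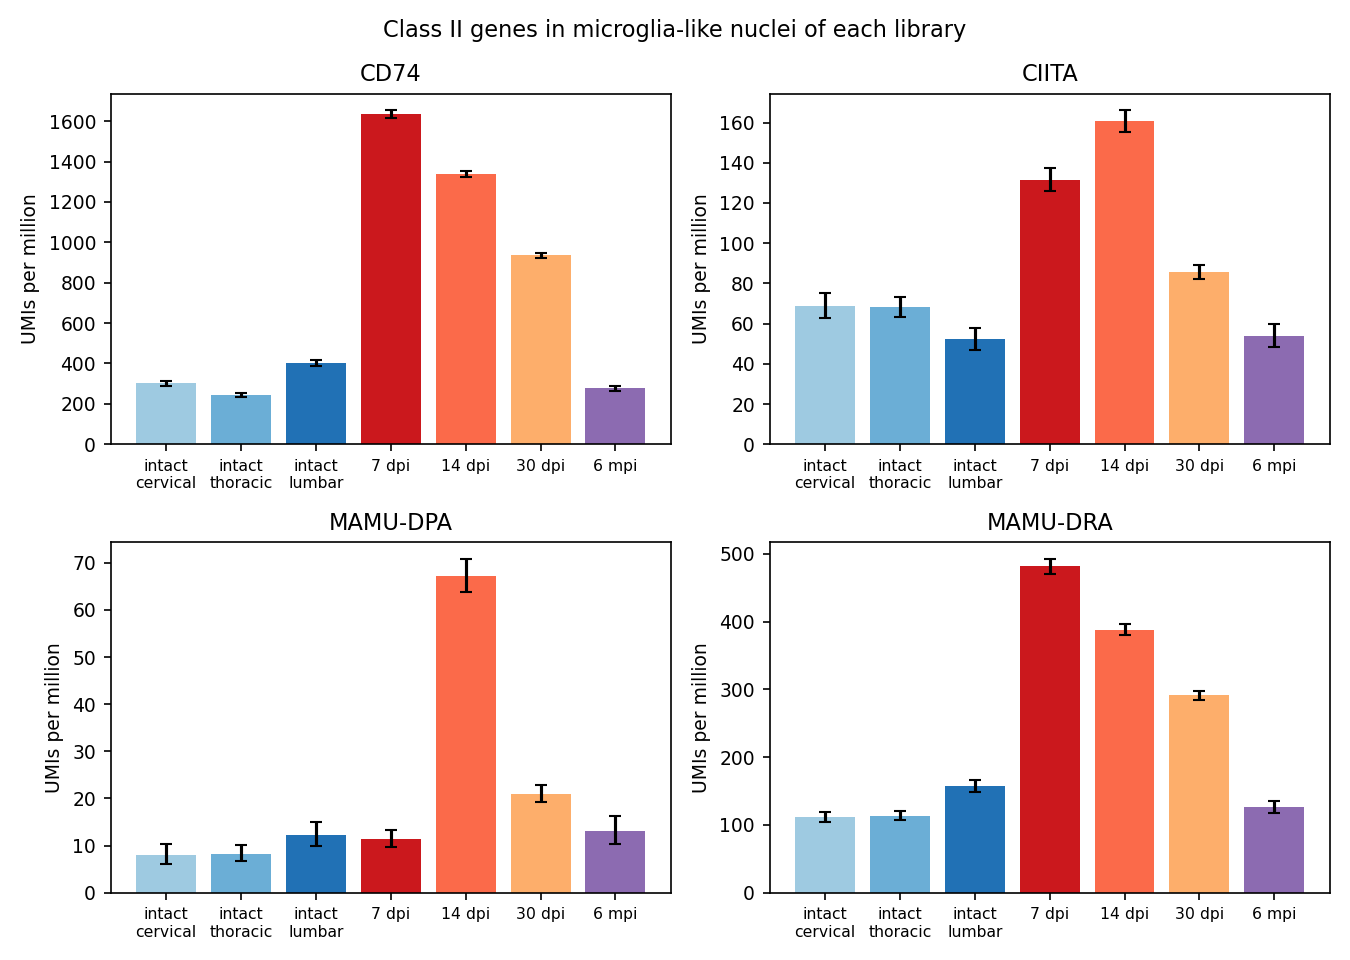
Level in CPM (linear axes from 0) of each of the 4 members in the microglia-like nuclei of each library, with bars for the level and whiskers for the exact Poisson 95% interval (counting error only). CD74 stood at 1634 CPM at 7 dpi against 245 to 401 in the intact segments and both CD74 and MAMU-DRA stood highest at 7 dpi, then 14 and 30 dpi, whereas MAMU-DPA stood apart at 14 dpi with 67.2 CPM.

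Against all genes whose higher library held 50 or more UMIs, scaled to equal depth, 3 of 4 members were at least 2-fold higher at 7 dpi, where 9.58% of 10056 genes were, and 4 of 4 at 14 dpi, where 6.01% of 9729 genes were. In nuclei without a UMI of early-response genes such as FOS and JUN, MAMU-DRA at 14 dpi was below 2-fold, at a log2 ratio of 0.97, so that 1 of the 4 calls ended. At 30 dpi only CD74 passed 2-fold, against 8.59% of 9832 genes, and at 6 mpi none did, against 14.3% of 9947 genes. No member was 2-fold lower at any time, where 6.21, 5.25, 7.17 and 4.88% of genes were lower in the same order of time points. The ratio of CD74 exceeded that of 96.7, 97.5, 93.1 and 11.0% of genes, and that of MAMU-DRA 95.2, 95.9, 90.2 and 18.0%. CIITA exceeded 93.7, 97.0, 87.8 and 38.7% of genes and MAMU-DPA 39.0, 98.7, 88.9 and 42.2%. The median log2 ratio of all genes was 0.06, -0.09, -0.05 and 0.20. The members, and the gene lists below, were chosen with earlier results of these data known. Their counts beside all genes are thus descriptions and not independent support.

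Other measures differed between the same libraries. Nuclei without a UMI of FOS, FOSB, JUN, JUNB or EGR1, early-response genes known to respond also to tissue handling, made up 74.3, 72.4, 82.4, 70.2, 15.7, 20.4 and 43.4% of microglia-like nuclei. In those nuclei alone the summed log2 ratio was 1.95 at 7 dpi, 1.29 at 14 dpi, 0.89 at 30 dpi, below 2-fold, and 0.11 at 6 mpi. BANK1 led the B cell markers at 14 dpi with 146 CPM against 28.2 to 58.2 CPM in the other libraries where it led. The whole B cell list summed to 149 CPM at 14 dpi, so nearly all of it was BANK1. FN1 led the monocyte markers at 30 dpi with 78.1 CPM, when that list summed to 120.5 CPM against 15.7 to 40.7 elsewhere. VWF led the endothelial markers in every library and stood at 1384 CPM at 7 dpi, when the list summed to 1517 CPM against 789 to 851 elsewhere. In intact cord VWF stood at 786 CPM in microglia-like nuclei and at 20.8 CPM or less in every other named class, none of which is endothelial. The list is thus mostly VWF, which microglia-like nuclei of intact cord also held. The dendritic cell list summed to 0.733 to 12.2 CPM and was highest in intact lumbar cord, the T cell list to 11.0 to 19.7 CPM. The part of these genes in the class II levels was not tested.

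The share of microglia-like nuclei with a member's UMI moved with the level. With every nucleus thinned to 1000 UMIs, a CD74 UMI was found in 23.0, 19.9, 26.2, 73.9, 63.9, 51.8 and 23.7% of them, and in 53.5, 48.5, 48.9, 95.1, 89.5, 85.3 and 40.4% before thinning. The median depth of these nuclei ran from 2396 UMIs at 6 mpi to 5812 UMIs at 30 dpi. MAMU-DRA was found in 10.6, 9.99, 12.2, 37.4, 28.9, 23.8 and 10.7% of thinned nuclei. In neuron-like nuclei, which are not known to make the invariant chain, thinned shares of CD74 were 0.246 to 0.459% in intact and 0.917 to 1.92% in injured cord at median depths of 21192 to 38523 UMIs. Before thinning the neuron-like shares were 7.48 to 9.18% in intact and 12 to 28.6% in injured cord. Astrocyte-like nuclei had thinned CD74 shares of 0.309 to 0.903% in intact and 3.23 to 6.38% in injured cord. All of these shares were below that of microglia-like nuclei of any library, thinned against thinned and unthinned against unthinned. CIITA reached 14.7% at 14 dpi from 5.75 to 6.48% in intact cord. MAMU-DPA reached 6.22% at 14 dpi and 0.787 to 1.81% in the other libraries.

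Thinned nuclei without any UMI of the 4 genes made up 65.7, 68.5, 62.7, 16.5, 23.3, 37.9 and 65.4% of microglia-like nuclei, and nuclei with 2 members 5.81, 5.10, 7.76, 32.3, 26.4, 19.2 and 5.15%. A CD74 UMI was more frequent among nuclei with a MAMU-DRA UMI than among those without in every library, from 32.0 against 21.9% in intact cervical cord to 79.6 against 70.5% at 7 dpi and 32.1 against 22.7% at 6 mpi. Between CIITA and MAMU-DRA no such order held in all libraries, with MAMU-DRA in 8.33% of nuclei with and 12.4% without a CIITA UMI in intact lumbar cord and in 29.2 and 23.3% at 30 dpi. The cells of a library share their source, so these shares are descriptions of 7 libraries.

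The members stood highest in microglia-like nuclei among the named classes with at least 50 nuclei in every library. These nuclei held 81.0, 79.3, 84.6, 93.2, 94.1, 93.7 and 80.9% of the CD74 UMIs of their library, and 74.8, 76.6, 63.0, 90.6, 91.0, 86.1 and 76.4% of the CIITA UMIs. For CD74 the next class lay 9.33, 7.99, 76.3, 6.07, 12.3, 3.81 and 11.8-fold lower. For MAMU-DRA it lay 3.13, 2.01, 5.30, 4.25, 10.7, 9.72 and 12.3-fold lower. The order of MAMU-DPA was not settled in intact cervical and thoracic cord, where its interval overlapped that of ependymal-like and of T cell-like nuclei.

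T cell-like nuclei numbered at least 50 in 4 libraries. They held 30.7 CPM of CD74 in intact thoracic cord, 269 at 7 dpi, 109 at 14 dpi and 245 at 30 dpi. These levels rest on 19, 38, 24 and 83 UMIs. Astrocyte-like nuclei held 6.29, 7.34, 2.82, 68.1, 51.7, 41.6 and 13.8 CPM, and neuron-like nuclei 2.86, 2.63, 2.75, 17.5, 14.6, 12.1 and 6.11 CPM. In astrocyte-like and neuron-like nuclei CD74 was thus higher in every injured library than in every intact one, 6 mpi included, and the injured libraries stood in the same order as in microglia-like nuclei. Oligodendrocyte-like nuclei held 3.17 to 4.11 CPM in intact and 19.1 to 25.4 CPM in injured cord, 6 mpi included. There the injured libraries stood in another order. These levels were set beside 79 other genes of microglia-like nuclei, chosen for a level at least 20-fold above every other class in intact cord, which keeps their share there low. In neuron-like nuclei their median share of the microglia-like level was 0.453 to 0.672% in intact and 1.14 to 1.52% in injured cord, beside 0.687 to 1.07% and 1.07 to 2.21% for CD74. In astrocyte-like nuclei it was 0.267 to 1.10% and 2.96 to 3.79%, beside 0.703 to 2.99% and 3.87 to 4.99% for CD74. In each injured library 20 to 55 of the 79 genes were at or above CD74 in neuron-like nuclei and 13 to 36 in astrocyte-like nuclei, so a higher CD74 level in these classes was not set apart from that of microglia-like genes at large. In bulk sums over nuclei of a class, more RNA per cell and more cells that hold the RNA cannot be told apart.

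**Figure D2:**
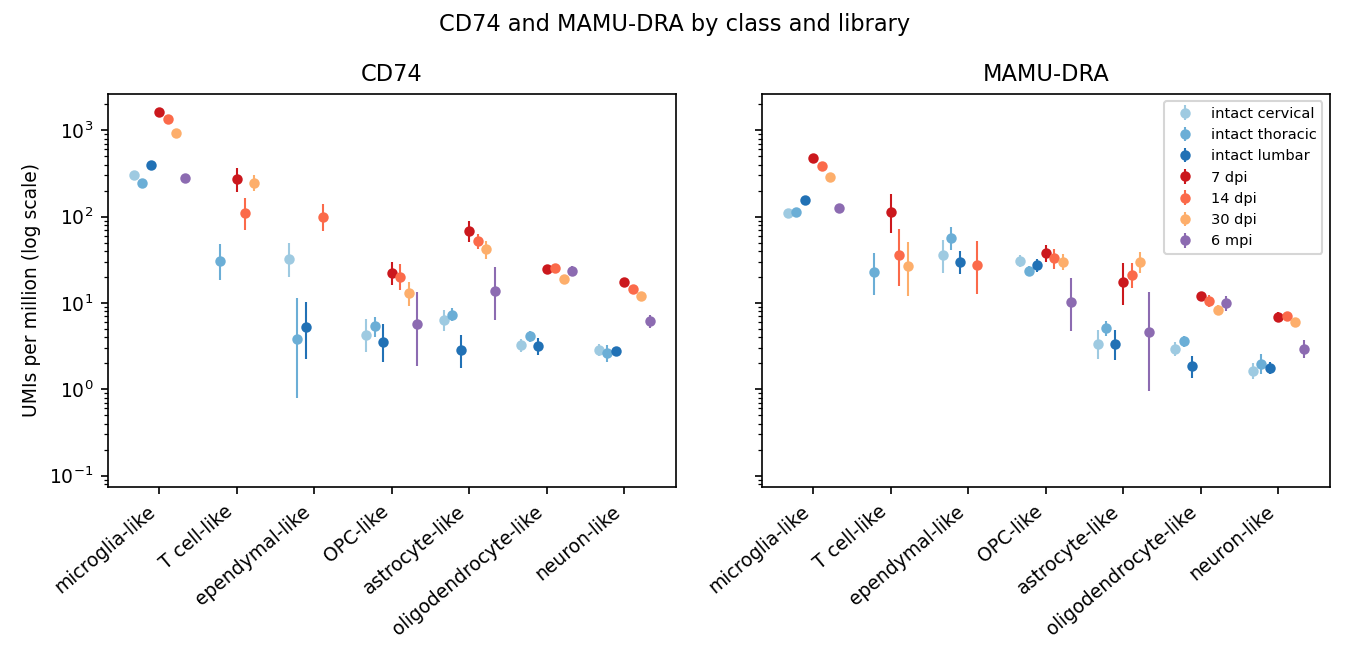
Level in CPM (log axis) of CD74 and MAMU-DRA in each named class with at least 50 nuclei, by library, with points for the level; sums of 0 are not drawn. Microglia-like nuclei stood highest for both genes in all 7 libraries, and MAMU-DRA in OPC-like nuclei stood at 23.7 to 30.3 CPM in intact cord, where CD74 stood at 3.53 to 5.35.

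MAMU-DRA differed from CD74 outside the microglia-like nuclei. In oligodendrocyte precursor (OPC)-like nuclei it was counted at 30.3, 23.7, 27.4, 37.9, 32.8, 30.0 and 10.3 CPM, whereas CD74 stood at 4.28, 5.35, 3.53, 22.2, 20.1, 12.9 and 5.71 CPM. From 7 to 30 dpi MAMU-DRA of OPC-like nuclei thus lay at 30.0 to 37.9 CPM beside 23.7 to 30.3 CPM in intact cord, less than 2-fold apart, and it was lowest at 6 mpi. The 6 mpi value rests on 9 UMIs (interval 4.70 to 19.5 CPM). CIITA had 4 to 10 UMIs per library in OPC-like nuclei, or 0.831 to 5.71 CPM, and MAMU-DPA had 1 to 4 UMIs in 3 libraries and 0 in the other 4, which allows up to 3.43 CPM (3 counts). Neither had the level of MAMU-DRA in this class in any library, though at 6 mpi the interval of CIITA overlapped that of MAMU-DRA. OPC-like nuclei held 12, 12.8 and 8.04% of the MAMU-DRA UMIs of the intact libraries.

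In OPC-like nuclei there were 7.09, 4.43, 7.76, 1.71, 1.63, 2.33 and 1.80 MAMU-DRA UMIs for each CD74 UMI. In microglia-like nuclei there were 0.369, 0.464, 0.391, 0.295, 0.290, 0.311 and 0.458. The ratio of OPC-like nuclei lay above that of microglia-like nuclei in each of the 7 libraries. Neuron-like nuclei lay at 0.397 to 0.753 and oligodendrocyte-like nuclei at 0.413 to 0.905. Astrocyte-like nuclei lay at 0.255 to 1.18. Ependymal-like nuclei lay at 1.10, 14.7 and 5.63 in the intact segments (3 CD74 UMIs in thoracic and 8 in lumbar cord) and at 0.281 at 14 dpi, so that the high ratio was not particular to OPC-like nuclei.

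**Figure D3:**
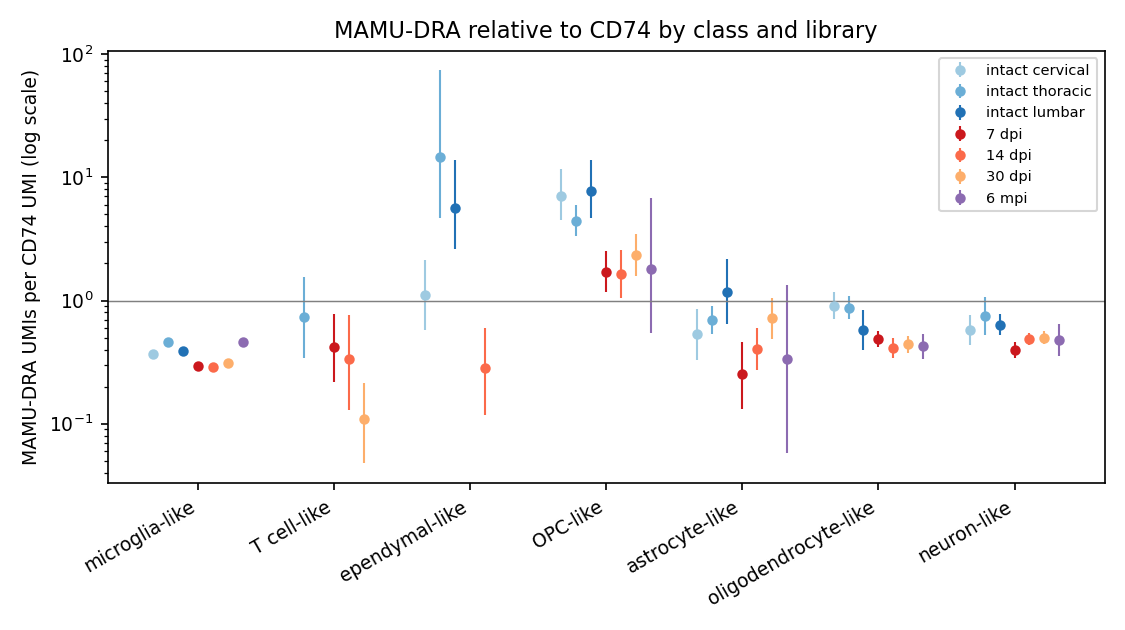
MAMU-DRA UMIs per CD74 UMI (log axis, line at 1) in each named class, by library. OPC-like nuclei lay between 1.63 and 7.76 in all libraries and microglia-like nuclei between 0.290 and 0.464.

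Of the OPC-like nuclei of intact cervical, thoracic and lumbar cord, 84, 135 and 75 had a MAMU-DRA UMI (12.7, 9.55 and 10.1%), and 3, 6 and 1 of these had a CD74 UMI (3.57, 4.44 and 1.33%). As a share of the microglia-like level MAMU-DRA reached 27.3, 20.9 and 17.5% in OPC-like nuclei of the intact segments, and 7.87, 8.44, 10.3 and 8.13% at 7, 14 and 30 dpi and 6 mpi. The median share of the 79 microglia-like genes was 0.208 to 0.528% in intact cord, where their choice keeps it low, and 0.506 to 0.891% in injured cord, where 0 to 2 of the 79 genes were at or above MAMU-DRA. Ependymal-like nuclei, which line the central canal, held MAMU-DRA in intact cord at 35.5, 56.5 and 29.6 CPM or 31.9, 49.7 and 18.9% of the microglia-like level. The median of the 79 genes there was 0 to 1.57%, and none was at or above MAMU-DRA. Their choice in intact cord keeps their share low there, so this count was largely fixed by it. It cannot be set against the count at 14 dpi, which follows. At 14 dpi they held 27.8 CPM of MAMU-DRA and 98.7 CPM of CD74, from 9 and 32 UMIs. These were 7.15 and 7.38% of the microglia-like level, beside a median of 7.86% for the 79 genes, with 47 and 44 at or above. Of the 6 nuclei with a MAMU-DRA UMI, 5 also held P2RY12, which is among the 79. The other injured libraries had fewer than 50 such nuclei.

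The other genes with a MAMU-D name were also read in microglia-like nuclei. No gene was named for a DQ chain, the beta chain of DP or the other chain of DM, so these were not covered. MAMU-DMB, a chain of the DM molecule that loads peptide, was counted at 85.3, 92.6, 102, 175, 162, 138 and 95.6 CPM, with 7, 14 and 30 dpi above the intact range and no 2-fold difference. MAMU-DRB1, a beta chain of DR, stood at 199, 176, 260, 434, 507, 283 and 155 CPM, and was below the intact range at 6 mpi. DRB genes are near-identical copies, so its counts are uncertain. Mamu-DPA1 stood at 26.6, 23.1, 35.3, 55.5, 141, 85.5 and 57.1 CPM, which was 1.57, 4.0, 2.42 and 1.62-fold of intact lumbar and above the intact range in all 4 injured libraries. Like MAMU-DPA it was highest at 14 dpi. MAMU-DOB, of the DO molecule that restrains DM, stood between 9.09 and 16.2 CPM, and MAMU-DOA at 3.72 CPM or less. Of 6 MAMU-D genes tested, members included, 1, 3, 1 and 0 passed 2-fold higher at 7, 14 and 30 dpi and 6 mpi, where 9.58, 6.01, 8.59 and 14.3% of all genes did. MAMU-DPA and MAMU-DRA are 2 of these 6.

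Of 12 regulators of class II transcription with enough UMIs, CIITA and the lymphoid and myeloid factor IRF8 passed 2-fold higher at 14 dpi and CIITA alone at 7 dpi, and IRF4 passed 2-fold lower at 7 and 30 dpi and 6 mpi. Of all genes 9.58 and 6.01% were so higher at 7 and 14 dpi, and 6.21, 7.17 and 4.88% so lower at 7 dpi, 30 dpi and 6 mpi. IRF8 stood at 92.8, 87.3, 83.2, 152, 218, 160 and 128 CPM. RFXANK, a subunit of the RFX complex that binds class II promoters, stood at 19.5, 15.1, 19.9, 29.1, 22.9, 24.3 and 36.3 CPM, and IRF4 at 14.1, 15.5, 12.5, 3.85, 6.79, 5.02 and 3.84 CPM. CREB1, which also binds class II promoters, had 320 to 323 CPM in intact and 231 to 261 CPM in injured cord. The median log2 ratio of the list was 0.03, -0.14, -0.03 and 0.06 over the 4 time points, against 0.06, -0.09, -0.05 and 0.20 for all genes.

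Interferon gamma is the known inducer of CIITA through JAK kinases. IFNG itself had 0 UMIs in microglia-like nuclei of every library. Its level in T cell-like nuclei is not given here, so the 0 covers this class alone. IRF1, a target and mediator of interferon, was the 1 gene of 6 tested that passed 2-fold higher, at 7 and 14 dpi (beside 9.58 and 6.01% of all genes), with 6.10, 3.98, 6.65, 14.7, 26.4, 8.18 and 6.08 CPM. JAK2, a kinase of the interferon receptor, stood at 454 to 513 CPM in intact and 538 to 753 CPM in injured cord. The receptor chain IFNGR1 stood at 525, 488, 737, 475, 309, 265 and 299 CPM and passed 2-fold lower from 14 dpi on, beside 5.25, 7.17 and 4.88% of all genes. The list's median log2 ratio was 0.36, 0.54, 0.12 and -0.30, the last over 5 genes, against 0.06, -0.09, -0.05 and 0.20 for all genes.

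Of the genes that process antigen for class II, 1 of 12 tested at 7 dpi and 2, 3 and 3 of 13 at 14 dpi, 30 dpi and 6 mpi were 2-fold higher, beside 9.58, 6.01, 8.59 and 14.3% of all genes, and none was 2-fold lower. The lysosomal protease CTSD stood at 10.0, 11.8, 13.8, 46.9, 42.7, 111 and 401 CPM, and IFI30, the lysosomal thiol reductase, at 11.9, 7.52, 19.4, 35.8, 50.5, 48.4 and 59.0 CPM. The level of CTSD was thus highest at 6 mpi, the library in which CD74 and MAMU-DRA lay inside the intact range. CTSL passed 2-fold at 30 dpi and 6 mpi, whereas CTSS, the protease known to remove the invariant chain in myeloid cells, stood at 202 to 262 CPM over the 7 libraries, and AP1S2, of a clathrin adaptor, at 64.0, 56.5, 74.1, 44.0, 44.7, 47.1 and 51.3 CPM. MARCHF1, the ligase that removes class II from the surface, stood at 737 to 981 CPM. The list's median log2 ratio was 0.27, 0.28, 0.43 and 0.47, against 0.06, -0.09, -0.05 and 0.20 for all genes.

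Among 5 co-stimulation genes tested, CD83 was 2-fold lower at 7 dpi and 2-fold higher at 30 dpi, and CD86 and ICOSLG were 2-fold lower at 6 mpi. Of all genes 6.21% were so lower at 7 dpi, 8.59% so higher at 30 dpi and 4.88% so lower at 6 mpi. ICOSLG, the ligand of ICOS on T cells, stood at 33.5, 30.7, 28.0, 21.0, 21.3, 16.6 and 9.43 CPM. The list's median log2 ratio was -0.99, 0.06, -0.07 and -0.33, against 0.06, -0.09, -0.05 and 0.20 for all genes.

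MHC class I molecules present peptides to CD8+ T cells. The list of this pathway held MAMU class I genes, and also B2M, NLRC5, proteasome subunits and other genes. Of those tested 5 of 11, 6 of 11, 3 of 10 and 4 of 11 were 2-fold higher over the 4 times. Of all genes 9.58, 6.01, 8.59 and 14.3% were so at 7, 14 and 30 dpi and 6 mpi. Among the MAMU class I genes Mamu-B passed 2-fold higher at 7 dpi, and MAMU-A and Mamu-B at 14 dpi. None did at 30 dpi, where Mamu-B was 2-fold lower, and MAMU-A did at 6 mpi. Class I genes are near-copies of each other in macaques, so counts of MAMU-A and Mamu-B are uncertain. NLRC5, the class I relative of CIITA, stood at 15.5, 14.0, 10.3, 49.2, 83.3, 56.6 and 29.7 CPM, and the immunoproteasome subunit PSMB8 at 11.7, 7.70, 7.60, 20.7, 26.2, 17.2 and 29.9 CPM. NLRC5, like CIITA, was highest at 14 dpi. The list's median log2 ratio was 0.89, 1.17, 0.06 and 0.77, against 0.06, -0.09, -0.05 and 0.20 for all genes.

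CD74 is also a surface receptor that signals with CD44, CXCR4 and related partners. CD44 was 2-fold higher at all 4 times, with 26.7, 41.7, 24.0, 50.9, 136, 161 and 243 CPM, and CXCR4 was 2-fold lower at 7 dpi and 2-fold higher at 6 mpi, beside 9.58, 6.01, 8.59 and 14.3% of all genes higher over the 4 times and 6.21% lower at 7 dpi. The median of the 3 partners was 0.07, 0.49, 0.78 and 3.15. Of 3 genes tested from the T cell side of the contact, CD4, which macaque microglia-like nuclei also held, stood at 279, 255, 257, 412, 360, 343 and 111 CPM. CD8A was 2-fold lower at 14 and 30 dpi, CD4 and CD28 were so at 6 mpi, beside 5.25, 7.17 and 4.88% of all genes at 14 dpi, 30 dpi and 6 mpi, and the median was 0.04, -0.50, -0.54 and -1.21. The list of stress genes had a median of -0.35, 1.93, 1.36 and 1.55 with 0 of 6, 5 of 7, 5 of 7 and 4 of 6 genes 2-fold higher, beside 9.58, 6.01, 8.59 and 14.3% of all genes. At 7 dpi 2 of them were 2-fold lower, beside 6.21% of all genes, and none was at the later times. For these 3 lists too the median of all genes was 0.06, -0.09, -0.05 and 0.20. JUN, a subunit of the AP-1 factor, stood at 66.7, 54.8, 36.4, 70.7, 269, 305 and 363 CPM.

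**Figure D4:**
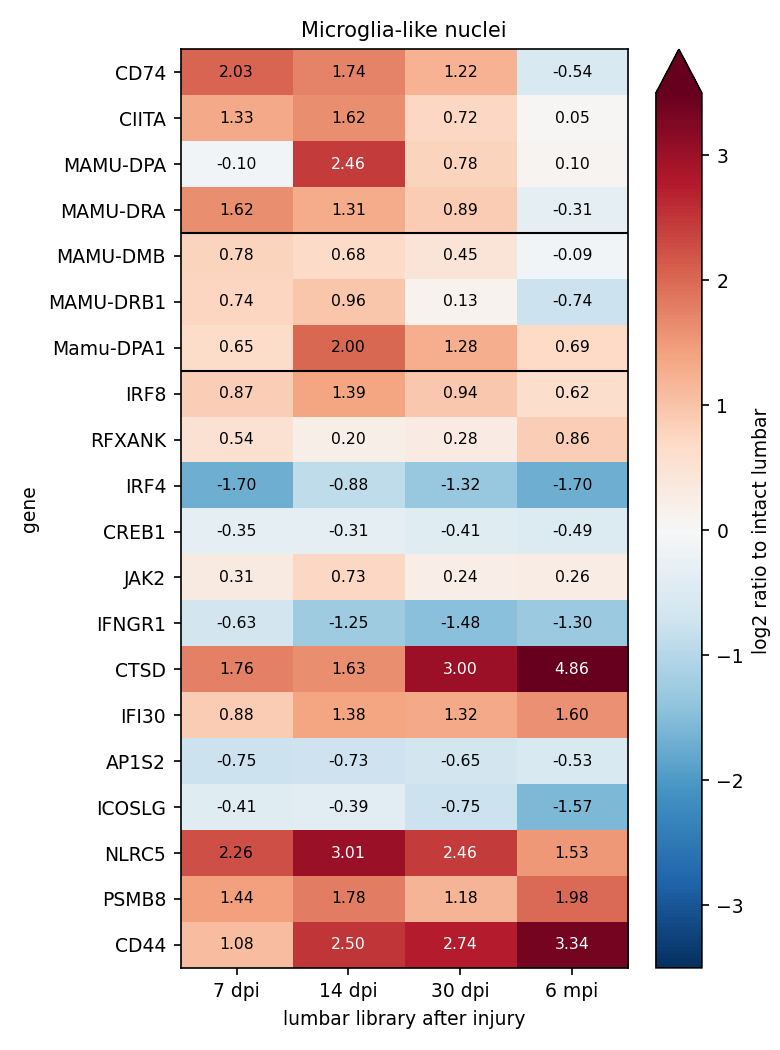
Map of the log2 ratio of the level in CPM in microglia-like nuclei to intact lumbar cord (colour, capped at 3.5 in either direction, value printed in each cell) for the members, other MAMU-D genes and named genes of the lists, by library. CD74 runs from 2.03 at 7 dpi to -0.54 at 6 mpi, whereas CTSD reaches 4.86 at 6 mpi.

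Microglia-like nuclei were not uniform within a library. Nuclei with a UMI of GPNMB, a lysosomal glycoprotein of phagocytic microglia and macrophages, numbered 287, 584, 1423 and 1291 at 7, 14 and 30 dpi and 6 mpi, or 8.29, 12.6, 36.7 and 55.9% of the class. In these nuclei CD74 stood at 872, 849, 520 and 182 CPM against 1717, 1429, 1260 and 413 CPM in nuclei without a GPNMB UMI, which is 0.508, 0.594, 0.413 and 0.441-fold. Nuclei with the UMI had the greater median depth at each time, with 4969 against 4149 UMIs at 7 dpi and 6901 against 5266 at 30 dpi.

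All 4 members were lower in nuclei with a GPNMB UMI in each of the 4 injured libraries. How many of all genes were lower in them was not counted, so this describes the 4 genes alone. MAMU-DRA stood at 274, 237, 151 and 91.1 CPM with and 504, 417, 401 and 178 CPM without it. CIITA stood at 74.3, 102, 46.5 and 30.5 CPM with and 138, 172, 116 and 87.7 CPM without it. MAMU-DPA stood at 5.87, 50.1, 14.2 and 8.92 CPM with and 12, 70.4, 26.4 and 19.2 CPM without it. Without these nuclei in any library the summed log2 ratio to intact lumbar was 1.93, 1.74, 1.53 and 0.16, so that the direction at 6 mpi turned. CIITA, MAMU-DPA and MAMU-DRA passed 2-fold at 30 dpi, at 1.15, 1.10 and 1.35. How many of all genes did so in the remaining nuclei was not counted. At 6 mpi these held 87.7 CPM of CIITA (76.6 to 100), against 52.2 to 69.0 CPM in such nuclei of the intact segments. CD74, MAMU-DRA and MAMU-DPA also stood above all intact segments, with intervals that overlapped that of intact lumbar cord. The part of GPNMB expression in the class II levels was not tested.

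**Figure D5:**
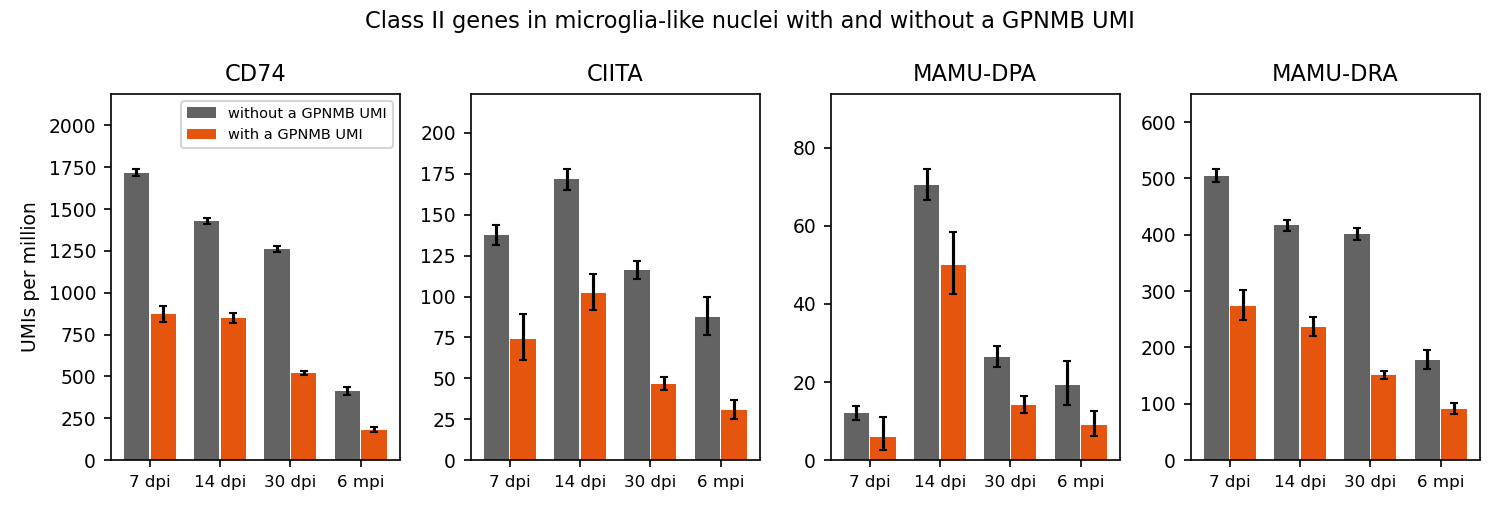
Level in CPM of the 4 members in microglia-like nuclei with and without a GPNMB UMI in the 4 injured libraries, with exact Poisson 95% intervals (counting error only). In every pair the nuclei with the UMI stood lower, for CD74 from 872 against 1717 at 7 dpi to 182 against 413 at 6 mpi.

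Nuclei with a UMI of the proliferation genes MKI67 or TOP2A numbered 381 at 7 dpi and held 1177 CPM of CD74 against 1724 CPM in the others, 333 against 511 CPM of MAMU-DRA and 101 against 137 CPM of CIITA. At 30 dpi there were 76 such nuclei, with CD74 at 682 against 943 CPM. Nuclei with at least 2 perivascular macrophage markers had a CD74 level of 0.962 to 1.33-fold of the others over the 7 libraries. At 6 mpi 157 such nuclei held 104 CPM of CIITA against 48.6 CPM, a 2.14-fold difference. The perivascular list summed to 628, 552, 957, 453, 555, 435 and 264 CPM in the whole class and CD163 led it in the intact segments.

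Different clusters held most microglia-like nuclei of different libraries, and the values above compare across them. Cluster 2 held 97.4 to 98.9% of the class in intact cord, cluster 6 held 84.2% at 7 dpi and 39.8% at 6 mpi, cluster 4 held 87.0% at 14 dpi, clusters 10 and 11 held 56.1 and 32.3% at 30 dpi, and cluster 14 held 51.0% at 6 mpi. Within cluster 6 CD74 stood at 1739 CPM at 7 dpi and at 401 CPM at 6 mpi. That these libraries share a cluster depends on the clustering resolution, which was 1 here. At resolution 2 a cluster held 2567 microglia-like nuclei of 7 dpi and 30 of 6 mpi, and another held 128 and 892. At 30 dpi it stood at 1249 CPM in cluster 10 and 439 CPM in cluster 11, and in cluster 14 at 6 mpi it stood at 172 CPM. The members and other MAMU-D genes were left out of the genes used for clustering.

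The genes most like each member over the microglia-like sums of the 7 libraries were taken by Pearson's r of log2 CPM among 4819 genes, as a description in which the points share library and depth. For CD74 they were MAMU-DRA (0.994), MAMU-DMB (0.984), YWHAH, SLC11A1 and MED27, and for MAMU-DRA they were MAMU-DMB (0.996), CD74 (0.994), ARMH3, SLC11A1 and YWHAH. SLC11A1, a metal transporter of phagosomes, stood at 80.4, 63.3, 79.1, 625, 339, 335 and 66.0 CPM. CIITA was most like RUNX1 (0.980), which stood at 388, 413, 360, 783, 785, 542 and 361 CPM, and MAMU-DPA was most like VPS8 (0.958), at 236, 250, 249, 278, 379, 312 and 282 CPM. Between members r was 0.877 for CD74 and CIITA and 0.629 for CD74 and MAMU-DPA.

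Over 43 sums of class and library, again by Pearson's r among 7937 genes, CD74 was most like ITGAM (0.954), the alpha M integrin of myeloid cells, followed by C3, SLC11A1, CD4 and MAMU-DRB1. MAMU-DRA was most like NIBAN1 (0.924) and LYN (0.914), CIITA most like TMEM114 (0.935) and MAMU-DPA most like GNA15 (0.913). The points include microglia-like sums, which are highest for all 4 members in every library, and how far that sets r was not tested.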

How the data were processed

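Nuclei of 7 spinal cord libraries were profiled with Chromium version 3 chemistry. The deposited tables hold raw UMI counts per gene and barcode, which the authors made with Cell Ranger (version 6.0.0 in the submitters' processing notes) on Mmul_10. The annotation release is not given in the sources used here. Rows were summed by symbol, 959 symbols coming from a table of gene names.

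By the study's limits a nucleus needed more than 500 genes and 1000 UMIs, with less than 10% of UMIs from mitochondria and less than 5% from hemoglobin, which removed 2248 of 69332 barcodes. The 5% of nuclei per library most like simulated doublets (3354) were then removed, in place of the authors' DoubletFinder. Log-normalised counts of 2000 variable genes, members and other MAMU-D genes left out, gave 30 principal components, a graph of 20 neighbours and Leiden clusters at resolution 1, without batch integration. Clusters were named from marker lists by a rule revised after the clusters had been seen, and clusters of mixed or few markers stayed unnamed. Class names were thus rebuilt and may differ from the study's.

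UMIs were summed per class and library and divided by all UMIs of that class, as CPM. Genes whose higher library held 50 or more UMIs, scaled to equal depth, were compared, and 2-fold was the limit for a call, which is not a test. Ratios carry no pseudocount, except that 1 was added to each value for ranking the genes of a list and for likeness. Each nucleus was thinned to 1000 UMIs for shares. A sum of 0 is limited at 3 counts. The members and the 8 gene lists were chosen with earlier results of these data known. Named genes of a list are up to 2 that were higher and 2 that were lower in all 4 injured libraries than in all 3 intact ones, by the smallest of the 4 ratios. A higher gene needed 50 or more UMIs in each injured library, and a lower one 50 or more in intact lumbar cord. Where no gene met this, the gene with most UMIs was named. CTSL, CTSS, CD83, CD86, CXCR4, MARCHF1, MAMU-DMB, VWF, BANK1 and FN1 were chosen after their values were seen. No group had replicates, and 12 alternatives fixed at the start and 2 added later were run. A list gene and the members' promoter sequences are not reported here. The 2-fold rule and the intervals of ratios were tested on simulated Poisson counts, without variation between animals or libraries. Clustering, naming and thinning were not tested so. Tools were scipy 1.17.1 and numpy 2.4.6 under Python 3.11.15, leidenalg 0.10.2 with igraph 0.11.9, scikit-learn 1.9.0, pysam 0.24.0, matplotlib 3.10.9 and pandas 2.3.3.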

Additional observations from a re-analysis of the deposited data

Results flagged for a closer look

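In microglia-like nuclei CD74 differed from intact lumbar cord in opposite directions between time points, with a log2 ratio of 2.03 at 7 dpi, 1.74 at 14 dpi and 1.22 at 30 dpi and of -0.54 at 6 mpi. MAMU-DRA did so too, with 1.62, 1.31 and 0.89 against -0.31 at 6 mpi. With 1 library per time point the difference was not tested. At 6 mpi neither gene left the range of the 3 intact libraries over the whole class. Without nuclei that held a GPNMB UMI the log2 ratio at 6 mpi was 0.04 for CD74 and 0.17 for MAMU-DRA. Both genes then stood above such nuclei of the intact segments, with intervals that overlapped that of intact lumbar cord.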

How the results depend on the processing

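Over 12 alternatives fixed at the start, 10 of which bear on ratios, and 2 chosen after seeing the data, 334 of 350 ratios kept their direction and 342 their side of 2-fold. The 350 include the summed genes and the ratios between intact segments. At 6 mpi the direction held in 10 of 12 alternatives for the sum, CD74 and MAMU-DRA, 9 for MAMU-DPA and 7 for CIITA. For MAMU-DPA at 7 dpi it held in 10 of 12, and all other ratios kept it throughout. The summed log2 ratio at 7, 14 and 30 dpi and 6 mpi was 2.13, 1.92, 1.37 and -0.13 against the mean of the 3 intact segments, 1.95, 1.29, 0.89 and 0.11 in nuclei without early-response genes, and 1.93, 1.74, 1.53 and 0.16 without GPNMB nuclei. The last 2 alternatives are the added ones. Size factors gave 1.74, 1.18 and -0.62 at 14 dpi, 30 dpi and 6 mpi. Without proliferating nuclei it was 1.94 at 7 dpi, thinned and without perivascular nuclei 1.16 and 1.03 at 30 dpi, and with each nucleus named alone -0.29 at 6 mpi. The cause was not tested. MAMU-DRA at 14 dpi lay below 2-fold in nuclei without early-response genes (0.97). MAMU-DRA at 30 dpi lay above it thinned (1.11) and against the mean of intact segments (1.19), as did MAMU-DPA there (1.15). CIITA at 6 mpi ranged from -0.23 to 0.75. With a minimum of 10 UMIs, or none, in place of 50, genes 2-fold higher numbered 1557 or 3999 in place of 963 at 7 dpi, 1055 or 4166 in place of 585 at 14 dpi, 1347 or 4577 in place of 845 at 30 dpi and 2333 or 4857 in place of 1425 at 6 mpi. Genes 2-fold lower numbered 1274 or 3665 in place of 624, 1078 or 2966 in place of 511, 1546 or 3618 in place of 705 and 851 or 2712 in place of 485. No paired analysis was possible because each group holds 1 library. Depth limits MAMU-DPA most, with 59 to 178 UMIs in 5 of 7 libraries.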

Other observations

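Mamu-DPA1 was counted in OPC-like nuclei at 34.0, 27.9, 35.3, 3.45, 28.7, 1.93 and 19.4 CPM in intact cervical, thoracic and lumbar cord, at 7, 14 and 30 dpi and at 6 mpi. In the intact segments this was 128, 121 and 100% of its microglia-like level. The 7 dpi and 30 dpi libraries stood below all others. In neuron-like nuclei Mamu-DPA1 stood at 11.4, 11.8, 12.1, 2.14, 13.9, 8.58 and 10.3 CPM, with 7 dpi again lowest. MAMU-DPA in neuron-like nuclei stood at 2.34 CPM (141 UMIs) at 30 dpi and at 0.340 to 0.828 CPM in the other 6 libraries.

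A cluster of 174 nuclei led by FN1, CFD and PECAM1, which was given no class name, had CD74 at 1754 CPM, MAMU-DRA at 794 CPM, CIITA at 283 CPM and MAMU-DPA at 47.1 CPM. In its 69 nuclei from intact cord CD74 stood at 1411 CPM and CIITA at 367 CPM, above the microglia-like nuclei of every intact segment, and in its 105 nuclei from injured cord they stood at 2020 and 218 CPM. A cluster of 149 nuclei led by ATP10A, EMCN and ADGRL4 had CD74 at 184 CPM and MAMU-DRA at 66.2 CPM.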
